A study of Mus musculus with 10 samples.

Results

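Autophagy and lysosome genes were followed here through 10 genes of NanoString's mouse PanCancer Immune Profiling panel, *Atg5*, *Atg7*, *Atg10*, *Atg12*, *Atg16l1*, *Tfeb*, *Lamp1*, *Lamp2*, *Cd63* and *Cd68*. They were chosen by name and function, with earlier results of these data known. All 10 were measured among the 770 gene probes of the table. The panel counts single RNA molecules of chosen genes with barcoded probes, without amplification.

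The study asked how the ubiquitin ligase Siah2 in the host affects the immune response to melanoma. YUMMER1.7 cells, a mouse melanoma line with mutant *Braf* and a high load of somatic mutations, were injected under the skin of C57BL/6 male mice, 5 to 7 weeks old by a legend of the study and 6 to 10 by its general account of the animals. The hosts were either WT, with 5 tumors (WT2 to WT6), or Siah2-/-, with 5 tumors (KO1, KO2, KO3, KO5 and KO6, the Siah2 KO tumors). The deletion was carried by every cell of the host and not by the injected cells, which were the same in both groups, and tumors were taken on day 11 by the labels and day 10 by a legend of the study. Whole tumors were measured, so fewer cells of a type and less RNA per cell cannot be told apart. *Siah2* has no probe among those of the table, so the genotype could not be checked on its own RNA.

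Macroautophagy encloses cytoplasm in a double membrane, the autophagosome, which fuses with a lysosome where its content is degraded. The membrane grows when LC3 is joined to lipid, a step carried out by 2 linked conjugation reactions in which Atg7 is the activating enzyme, Atg10 joins Atg12 to Atg5, and Atg16l1 binds that conjugate and places it on the membrane. Tfeb is a transcription factor that turns on genes of lysosomes and autophagy, and Lamp1, Lamp2, Cd63 and Cd68 are glycoproteins of the lysosomal and late endosomal membrane. Cd68 is made mainly by macrophages and other phagocytes and is widely used to mark them.

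Tfeb and related factors bind an E-box with the letters CACGTG, and its extended form in lysosomal genes is known as the CLEAR motif. Windows around the start of 8 of the 10 genes, from 250 bases before to 50 bases after it, were read from RefSeq (GRCm38.p6). *Atg12* and *Atg16l1* were not matched. The 3 windows below belong to the lysosomal membrane genes whose RNA is compared most closely in the following paragraphs, at chr8:13158911-13159210 on the plus strand for *Lamp1*, chrX:38456411-38456710 on the minus strand for *Lamp2* and chr11:69666121-69666420 on the minus strand for *Cd68*, with CACGTG in capitals.
Lamp1: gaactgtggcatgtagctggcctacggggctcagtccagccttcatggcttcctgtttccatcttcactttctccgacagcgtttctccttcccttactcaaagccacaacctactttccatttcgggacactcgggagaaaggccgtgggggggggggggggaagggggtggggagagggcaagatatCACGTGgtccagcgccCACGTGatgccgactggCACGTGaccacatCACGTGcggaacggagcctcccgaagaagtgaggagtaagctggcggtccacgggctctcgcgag
Lamp2: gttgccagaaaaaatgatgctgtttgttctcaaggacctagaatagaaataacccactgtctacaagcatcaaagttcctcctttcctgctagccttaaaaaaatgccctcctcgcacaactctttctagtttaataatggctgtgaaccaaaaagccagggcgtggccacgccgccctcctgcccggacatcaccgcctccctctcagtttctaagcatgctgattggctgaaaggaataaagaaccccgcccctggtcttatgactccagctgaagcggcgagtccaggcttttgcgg
Cd68: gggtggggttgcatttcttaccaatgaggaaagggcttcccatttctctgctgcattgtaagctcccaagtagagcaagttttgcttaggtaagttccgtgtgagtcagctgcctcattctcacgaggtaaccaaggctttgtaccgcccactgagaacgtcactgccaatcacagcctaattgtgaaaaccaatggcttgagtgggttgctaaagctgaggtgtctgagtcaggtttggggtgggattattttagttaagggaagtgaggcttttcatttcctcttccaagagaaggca
The *Lamp1* window held 4 copies of CACGTG, beginning 61, 45, 28 and 15 bases before the start, and the windows of *Lamp2* and *Cd68* held none. CACGTG also stood 14 bases before the start of *Atg5* and 132 bases before that of *Atg7*, so that 3 of the 10 windows of these 8 genes (*Tfeb* has 3) held it, where 7.15% of the 32851 windows of all genes did. CACGTG reads the same on both strands. The longer forms TCACGTGA, in 0.974% of all windows, and GTCACGTGAC, an exact form of the CLEAR motif, in 0.326%, both contain CACGTG. They were in 0 of the 10 windows. Only these exact letters were sought, so CLEAR elements that differ from GTCACGTGAC in some letters were not counted, in *Lamp1* or elsewhere. These matches describe letters in the windows, and binding was not measured.

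Between Siah2 KO and WT tumors, *Cd68* rose by 1.83-fold, *Lamp2* by 1.24-fold and *Atg16l1* by 1.19-fold, and the other 7 genes did not pass the test. Values are normalized counts scaled by the authors to the geometric mean of 20 reference genes, and fold changes are taken from log2(value + 1). Of the 10 genes, 3 were higher and 0 lower at a limma adjusted p under 0.05, where 41.0% of all 770 probes were called, 31.3% as higher and 9.74% as lower. The median log2 fold change of the 10 genes was 0.14 and that of all probes 0.24. The groups did not overlap for 2 genes, *Atg16l1* and *Cd68*, where 31.6% of all probes did not overlap. The share of genes called or without overlap was thus no larger among the 10 genes than over the panel.

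**Figure D1:**
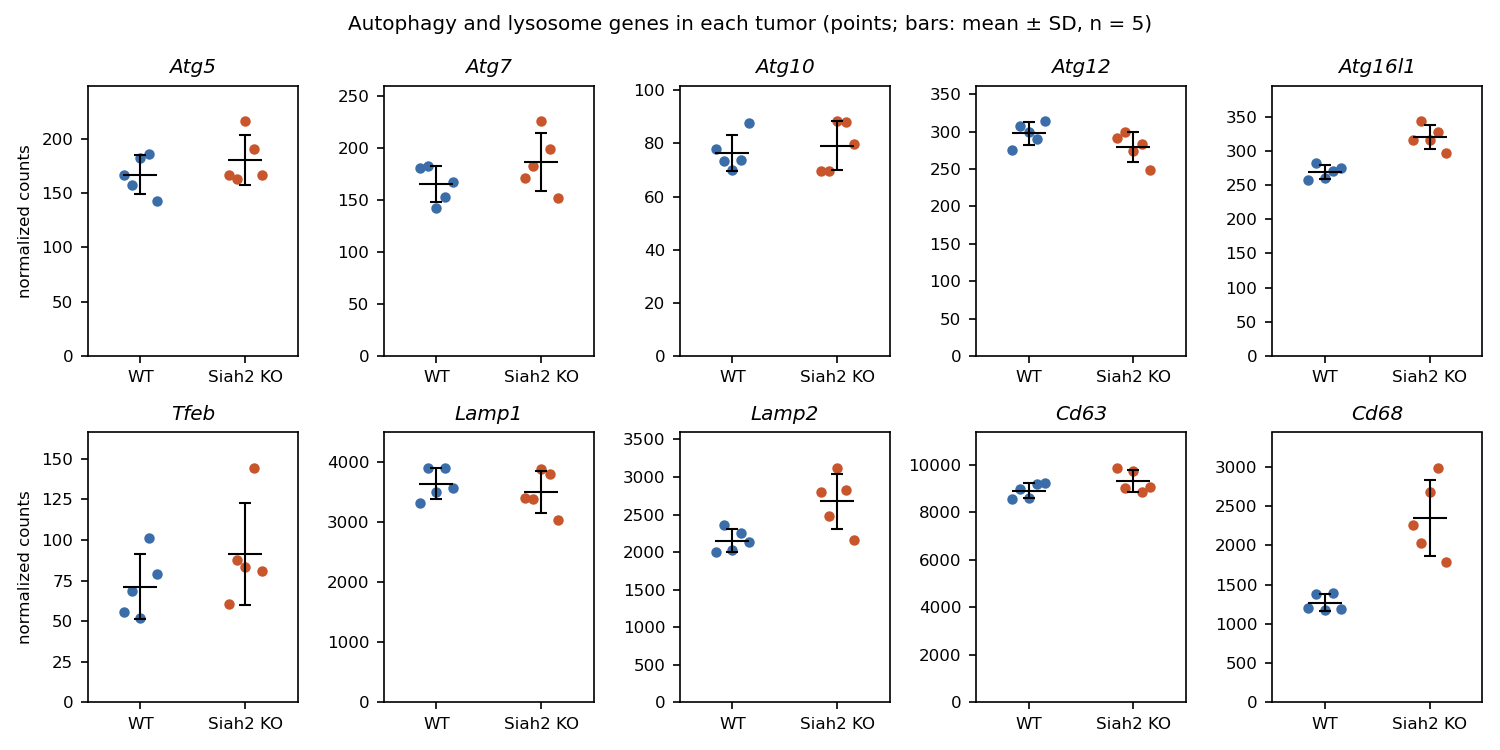
Normalized counts (linear axes from 0) of the 10 genes in each tumor, with 5 WT tumors in blue and 5 Siah2 KO tumors in orange. Bars are the mean and SD of 5 tumors. The orange points of *Cd68*, from 1793 to 2990 normalized counts, and of *Atg16l1*, from 296 to 343, lie above all blue points of the same panel.

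Among the genes of the conjugation machinery, *Atg16l1* was measured at 258, 282, 261, 270 and 275 normalized counts in WT2 to WT6. In KO1, KO2, KO3, KO5 and KO6 it was at 316, 343, 316, 328 and 296. All 5 Siah2 KO tumors lay above the highest WT tumor, and the spread within a group was small, with a coefficient of variation of 3.65% in WT and 5.43% in Siah2 KO tumors. The mean rose from 269 ± 9.84 (SD, n = 5) to 320 ± 17.3 (SD, n = 5). The log2 fold change was 0.25 (SE 0.074, 95% confidence interval 0.083 to 0.41, limma adjusted p = 0.022), and a two-sided exact permutation test gave p = 0.0079, the smallest that 5 against 5 tumors allow. The call was lost without WT2 (limma adjusted p = 0.053) and without WT4 (limma adjusted p = 0.056).

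*Atg12*, the ubiquitin-like protein that is joined to Atg5, was at 276, 308, 300, 290 and 314 normalized counts in the WT tumors and at 292, 300, 274, 283 and 249 in the Siah2 KO tumors. KO3 and KO6 lay below the lowest WT tumor and the other 3 lay within the WT range. Its log2 fold change was -0.09 (95% confidence interval -0.27 to 0.09, limma adjusted p = 0.39).

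*Atg5*, its partner in the conjugate, ran from 143 to 186 normalized counts in WT and from 163 to 216 in Siah2 KO tumors. *Atg7*, the activating enzyme, lay between 143 and 183 in WT and between 152 and 226 in Siah2 KO tumors, and KO3 was the highest tumor for both genes. *Atg10*, the enzyme that links Atg12 to Atg5, was the weakest of the 5, with 70.1 to 87.6 in WT and 69.7 to 88.4 in Siah2 KO tumors. The groups overlapped for all 3. The log2 fold changes were 0.11 for *Atg5* (95% confidence interval -0.14 to 0.36), 0.17 for *Atg7* (-0.11 to 0.44) and 0.04 for *Atg10* (-0.19 to 0.28), with limma adjusted p between 0.31 and 0.75. Such intervals leave room for changes as large as that of *Atg16l1*.

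*Tfeb*, the regulator, was at 55.9, 68.6, 51.7, 101 and 79.0 normalized counts in the WT tumors and at 60.8, 87.3, 83.3, 144 and 80.9 in the Siah2 KO tumors. Only KO5 exceeded the highest WT tumor, WT5. *Tfeb* varied most within groups among the 10 genes, with a coefficient of variation of 27.9% in WT and 34.3% in Siah2 KO tumors. Its log2 fold change of 0.34 was close to that of *Lamp2*, but its confidence interval ran from -0.21 to 0.88 (limma adjusted p = 0.30).

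Of the lysosomal membrane genes, *Lamp1*, which with Lamp2 makes up much of the protein of the lysosomal membrane, was at 3317, 3902, 3495, 3903 and 3560 normalized counts in the WT tumors. In the Siah2 KO tumors it was at 3398, 3386, 3884, 3799 and 3032, with KO6 below and the other 4 within the WT range. The log2 fold change was -0.06 (95% confidence interval -0.27 to 0.15, limma adjusted p = 0.65). *Lamp2*, which also serves as a receptor in chaperone-mediated autophagy, was at 1995, 2356, 2026, 2253 and 2128 in the WT tumors. It was at 2793, 2480, 3123, 2820 and 2166 in the Siah2 KO tumors, of which 4 exceeded every WT tumor and KO6 did not. The mean of *Lamp2* rose from 2152 ± 152 (SD, n = 5) to 2677 ± 365 (SD, n = 5), a log2 fold change of 0.31 (SE 0.11, 95% confidence interval 0.060 to 0.55, limma adjusted p = 0.0485). The exact permutation test, two-sided, gave p = 0.024. This call lay at the threshold and was kept only when KO6 was left out (limma adjusted p = 0.012), while leaving out any of the other 9 tumors gave a limma adjusted p between 0.055 and 0.11.

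*Cd63*, a tetraspanin of late endosomes and lysosomes, lay between 8574 and 9220 normalized counts in WT and between 8836 and 9874 in Siah2 KO tumors. The log2 fold change was 0.06 (95% confidence interval -0.10 to 0.22, limma adjusted p = 0.53), and its interval was the narrowest of the 10 genes together with that of *Atg16l1*.

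*Cd68* was at 1203, 1383, 1180, 1394 and 1185 normalized counts in the WT tumors and at 2263, 2033, 2677, 2990 and 1793 in the Siah2 KO tumors. Every Siah2 KO tumor lay above every WT tumor, KO5 highest and KO6 lowest. The mean rose from 1269 ± 109 (SD, n = 5) to 2351 ± 483 (SD, n = 5), a log2 fold change of 0.87 (SE 0.14, 95% confidence interval 0.55 to 1.19, limma adjusted p = 0.0012, two-sided exact permutation p = 0.0079). It ranked 114 among the 770 probes from the largest log2 fold change down, and the other 9 genes ranked between 323 and 590. Leaving out any 1 tumor gave log2 fold changes between 0.78 and 0.96.

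**Figure D2:**
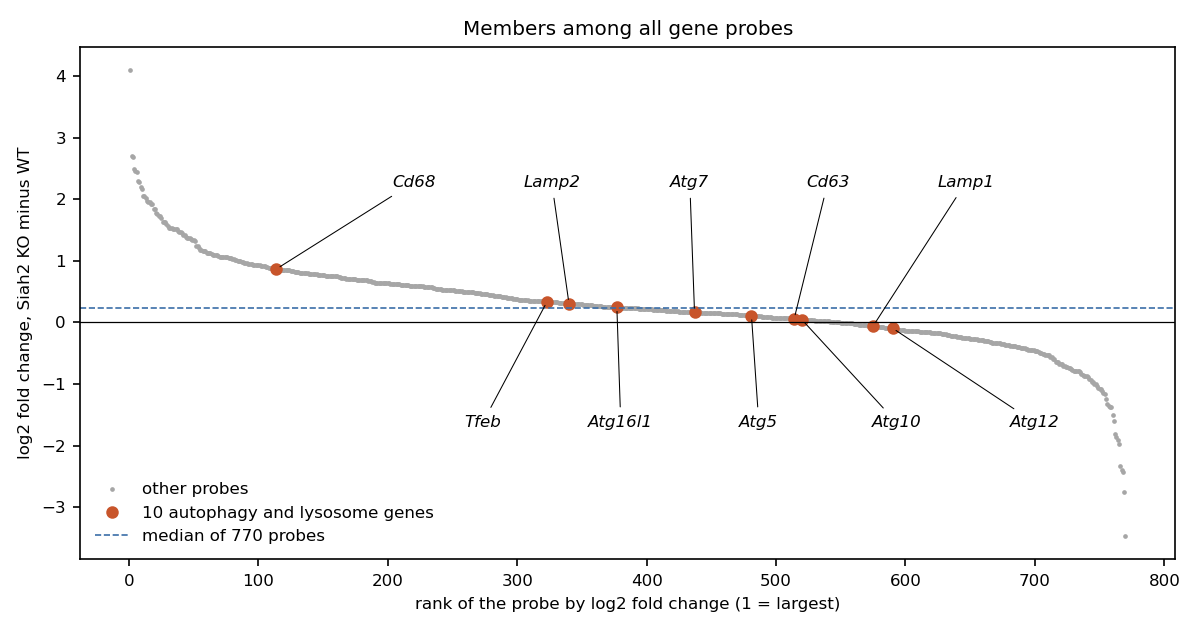
Log2 fold change, Siah2 KO minus WT, of all 770 gene probes in order of size (grey), with the 10 autophagy and lysosome genes in orange and the median of all probes, 0.24, as a dashed line. *Cd68* at rank 114 stands among the larger changes, *Tfeb*, *Lamp2* and *Atg16l1* at or above the median and the other 6 genes below it.

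Because the reference genes set the scale of each tumor, the genes were also compared after giving all tumors 1 common median over the endogenous probes (median scaling), which moved the median of all probes by -0.25 on the log2 scale. On that scale *Cd68* was higher by 0.60 (limma adjusted p = 0.00088), and *Atg12* (-0.36, limma adjusted p = 0.013) and *Lamp1* (-0.32, limma adjusted p = 0.0045) were lower. *Atg16l1*, at -0.019 (95% confidence interval -0.22 to 0.18), and *Lamp2*, at 0.04 (-0.15 to 0.23), were no longer called. Thus 1 of the 10 genes was higher, where 21.2% of all probes were, and 2 were lower, where 19.7% were. The tumors were also scaled to the positive control probes, with the reference gene factor taken out. The intervals were then wide, and 0 of the 10 genes were called. Of all 770 probes only 60 were called higher and 35 lower on that scale, so 0 of 10 does not set these genes apart. *Cd68* was higher there by 0.71 (limma adjusted p = 0.16, unadjusted 95% confidence interval 0.056 to 1.36).

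**Figure D3:**
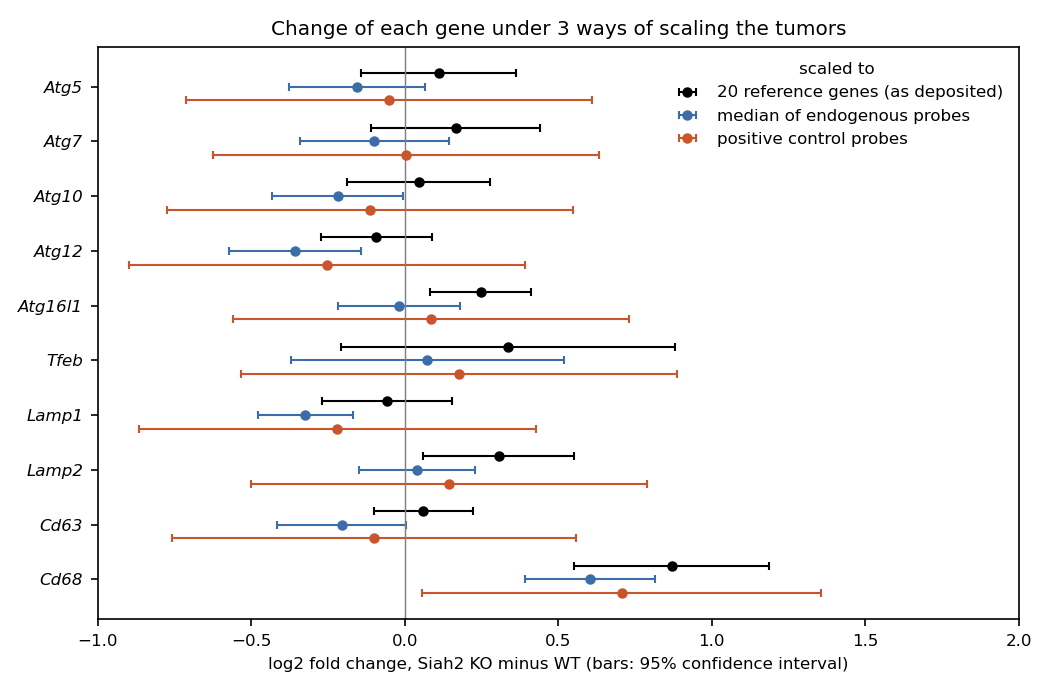
Log2 fold change, Siah2 KO minus WT, of the 10 genes with 95% confidence intervals when tumors were scaled to the 20 reference genes (black), to the median of the endogenous probes (blue) or to the positive control probes (red). *Cd68* is the gene whose interval lies above 0 on all 3 scales, and on the blue scale the intervals of *Atg12*, *Lamp1* and, narrowly and without a call, *Atg10* lie below 0.

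A ratio of members inside 1 tumor does not depend on the factor of that tumor, so 6 ratios chosen by function were compared. Their genes had been picked with earlier results of these data known. The size of a ratio also depends on how well each probe binds, so ratios were read only between groups. *Lamp2* over *Lamp1* was 0.602, 0.604, 0.580, 0.577 and 0.598 in the WT tumors and 0.822, 0.732, 0.804, 0.742 and 0.715 in the Siah2 KO tumors. The ratio varied little within a group, with a mean of 0.592 ± 0.0126 (SD, n = 5) in WT and 0.763 ± 0.0471 (SD, n = 5) in Siah2 KO tumors, and the groups did not overlap. It was 1.29-fold higher in Siah2 KO tumors, a log2 difference of 0.36 (SE 0.042, two-sided exact permutation p = 0.0079, adjusted over the 6 ratios 0.024). KO6, whose *Lamp2* level lay in the WT range, was above every WT tumor in this ratio.

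*Cd68* over *Lamp1* ran from 0.333 to 0.363 in WT and from 0.592 to 0.787 in Siah2 KO tumors, again without overlap. This ratio was 1.90-fold higher, a log2 difference of 0.93 (SE 0.079, two-sided exact permutation p = 0.0079, adjusted 0.024). *Cd68* and *Lamp2* thus rose relative to *Lamp1* whatever factor scaled the tumor. For *Cd63* over *Lamp1* the log2 difference was 0.12 (SE 0.075), and for *Atg12* over *Atg5* it was -0.20 (SE 0.13). It was 0.14 (SE 0.12) for *Atg16l1* over *Atg5* and 0.12 (SE 0.11) for *Atg7* over *Atg10*, and these 4 ratios overlapped between groups, with two-sided exact permutation p between 0.16 and 0.31, adjusted 0.29 to 0.31. A difference in change between *Atg16l1* and *Atg5* was therefore not shown, although 1 of them passed the test and the other did not.

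**Figure D4:**
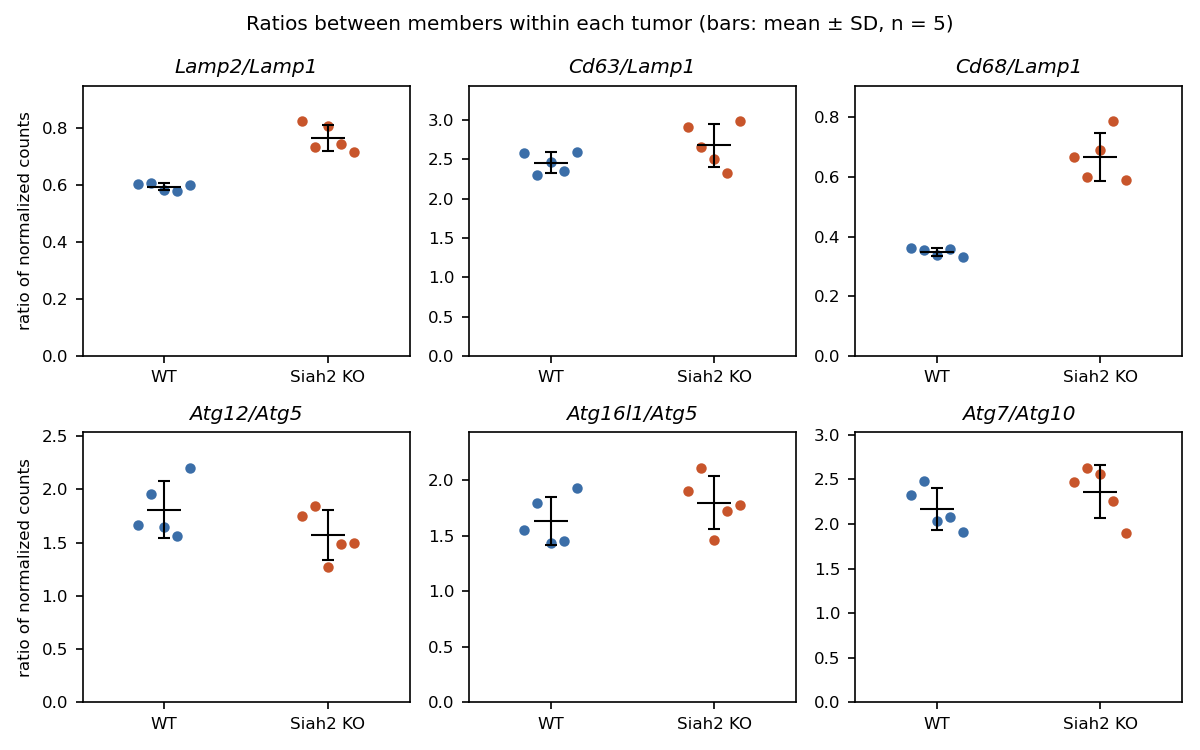
Ratio of normalized counts (linear axes from 0) of 6 pairs of genes inside each tumor, with 5 WT tumors in blue and 5 Siah2 KO tumors in orange, and bars for the mean and SD. The groups are apart for *Lamp2*/*Lamp1* (0.577 to 0.604 against 0.715 to 0.822) and *Cd68*/*Lamp1* and overlap for the other 4 pairs.

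Markers of cell types also differed between the groups, some lists mostly higher and others mostly lower, and their part in the results was not tested. Of 10 macrophage markers 2 rose and 2 fell in Siah2 KO tumors, from *Msr1* at a log2 fold change of 0.92 to *Cd163* at -1.86, with a median of 0.10 and summed levels of 16196 to 19707 normalized counts in WT and 18389 to 26692 in Siah2 KO tumors. Of 8 general leukocyte markers 6 were higher and 0 lower, with a median of 0.54, from *Itgb2* at 1.16 to *Cd37* at 0.01, and summed levels of 4171 to 5061 against 6212 to 9288. Of 6 neutrophil markers 2 were higher and 0 lower (median 0.71, from *Trem1* at 1.24 to *Ltf* at 0.11, sums of 234 to 281 against 261 to 648), and *Camp* and *Ltf* stood at or near the floor of detection in all tumors. Of 8 T cell markers 5 were higher and 0 lower (median 0.76, from *Cd8b1* at 1.76 to *Cd6* at -0.23, sums of 496 to 646 against 702 to 1242). Of 6 fibroblast markers 1 was higher and 4 were lower (median -0.57, from *Thy1* at 0.71 to *Fap* at -1.97, sums of 17496 to 22436 against 11608 to 13568). *Thy1*, the 1 that was higher, is also carried by mouse T cells, on which the study used it to tell donors apart. Of 7 endothelial markers 1 was higher and 2 were lower (median -0.31, from *Pecam1* at 0.88 to *Vwf* at -0.79, sums of 1266 to 1387 against 1157 to 1340). Of 3 melanoma markers 0 were higher and 2 lower (median -0.87, from *Mcam* at -0.17 to *S100b* at -2.39, sums of 438 to 594 against 224 to 405), and *S100b* was at 1.03 to 2.51 normalized counts, near the floor, in the Siah2 KO tumors.

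*Cd68* was also higher when each tumor was set against the median of its own macrophage markers, which moved the median of all probes by -0.26. On the log2 scale the marker median was 10.0 to 10.4 in WT and 10.2 to 10.9 in Siah2 KO tumors. It is a median of levels and not of changes, and the median log2 fold change of the 10 markers was 0.10. The markers went both ways, with *Msr1* (0.92) and *Fcgr1* (0.72) higher and *Cd163* (-1.86) and *Mrc1* (-0.89) lower. *Msr1* alone rose more than *Cd68* (0.87), and whether *Cd68* changed beyond the macrophages present was not tested. The log2 level of *Cd68* minus the median log2 level of the 10 markers ran from -0.16 to 0.31 in WT and from 0.51 to 0.91 in Siah2 KO tumors, without overlap. The difference was 0.61 (SE 0.13, limma adjusted p = 0.0056, two-sided exact permutation p = 0.0079). On this scale 1 of the 10 genes was higher and 0 were lower, where 17.9% of all probes were higher and 13.0% lower. *Lamp2* (0.04) and *Atg16l1* (-0.015) did not pass the test there, and *Lamp1* and *Atg12* were at -0.32 and -0.35, both with a limma adjusted p of 0.098. Set against the 8 leukocyte markers, *Cd68* was higher by 0.45 (limma adjusted p = 0.0071), and *Atg10* (-0.37, limma adjusted p = 0.0497), *Atg12* (-0.51, limma adjusted p = 0.015) and *Lamp1* (-0.47, limma adjusted p = 0.0080) were lower. On that scale 13.4% of all probes were higher and 23.6% lower, 37.0% in all, so that 4 of 10 genes called was close to the share of the panel. Against the mean instead of the median of the macrophage markers, 3 of the 10 genes were called, where 45.2% of all probes were.

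Of 8 other lysosomal genes on the panel, 5 rose and 2 fell in Siah2 KO tumors, with a median log2 fold change of 0.35, where 31.3% of all probes were higher and 9.74% lower with a median of 0.24. *Slc11a1*, a metal transporter of phagosomes, rose from 132 ± 37.9 to 393 ± 116 (SD, n = 5), a log2 fold change of 1.57 (limma adjusted p = 0.00084). *Ctss*, a cysteine protease of antigen-presenting cells, rose from 4699 ± 526 to 8764 ± 1712 (SD, n = 5), by 0.89 on the log2 scale (limma adjusted p = 0.0012). The cathepsins *Ctsh* (0.38) and *Ctsl* (0.35) and the membrane mucin *Cd164* (0.36) rose less, with limma adjusted p between 0.025 and 0.041, and these 3 passed the test in only 2, 5 and 5 of the 10 comparisons that left out a tumor. *Igf2r*, the receptor that carries new enzymes to the lysosome, fell by 0.45 (limma adjusted p = 0.011), and *Gusb*, a lysosomal hydrolase that is also a reference gene, fell by 0.31 (limma adjusted p = 0.033), called in 3 of those 10. *Lamp3* was at or near the floor in all tumors. With scaling to the median of the endogenous probes the counts became 2 higher, *Slc11a1* and *Ctss*, and 2 lower, *Igf2r* and *Gusb*. On that scale 21.2% of all probes were higher and 19.7% lower, so these counts were near the shares of the panel. *Ctsh* turned to -0.035 with quantile normalization.

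Of 10 genes that act on autophagy from outside the conjugation machinery, 4 were higher and 1 lower, with a median of 0.23, close to the 31.3%, 9.74% and 0.24 of all probes. The pattern receptors *Nod1* and *Nod2*, which recruit Atg16l1 to bacteria, rose by 0.66 (limma adjusted p = 0.0074) and 1.03 (limma adjusted p = 0.015) on the log2 scale, *Nod2* from a low level of 26.6 to 53.5 normalized counts. *Irgm2*, an interferon-induced GTPase, rose by 0.61 and *Tfe3*, a relative of Tfeb, by 0.35, with limma adjusted p of 0.039 and 0.041 and calls in 4 and 3 of the 10 comparisons that left out a tumor. *Hmgb1*, a nuclear protein that can bind beclin 1, fell by 0.26 (limma adjusted p = 0.031, called in 4 of the 10). The log2 fold changes of *Bcl2l1* (0.23), *Tbk1* (0.23), *Bcl2* (0.17), *Tmem173* (0.10) and *Tollip* (0.05) did not pass the test, and all 5 turned negative with median scaling. On that scale *Nod1* and *Nod2* were higher and *Hmgb1* and *Tollip* lower, where 21.2% of all probes were higher and 19.7% lower.

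Of 4 tetraspanins other than *Cd63*, the leukocyte gene *Cd53* rose by 1.10 (limma adjusted p = 0.0011) and the broadly expressed *Cd81* fell by 0.37 (limma adjusted p = 0.0032), while *Cd9* (-0.27) and *Cd37* (0.01) did not pass the test. Their median was -0.13, and *Cd9* was also called lower with median scaling, at -0.53 (limma adjusted p = 0.0089).

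**Figure D5:**
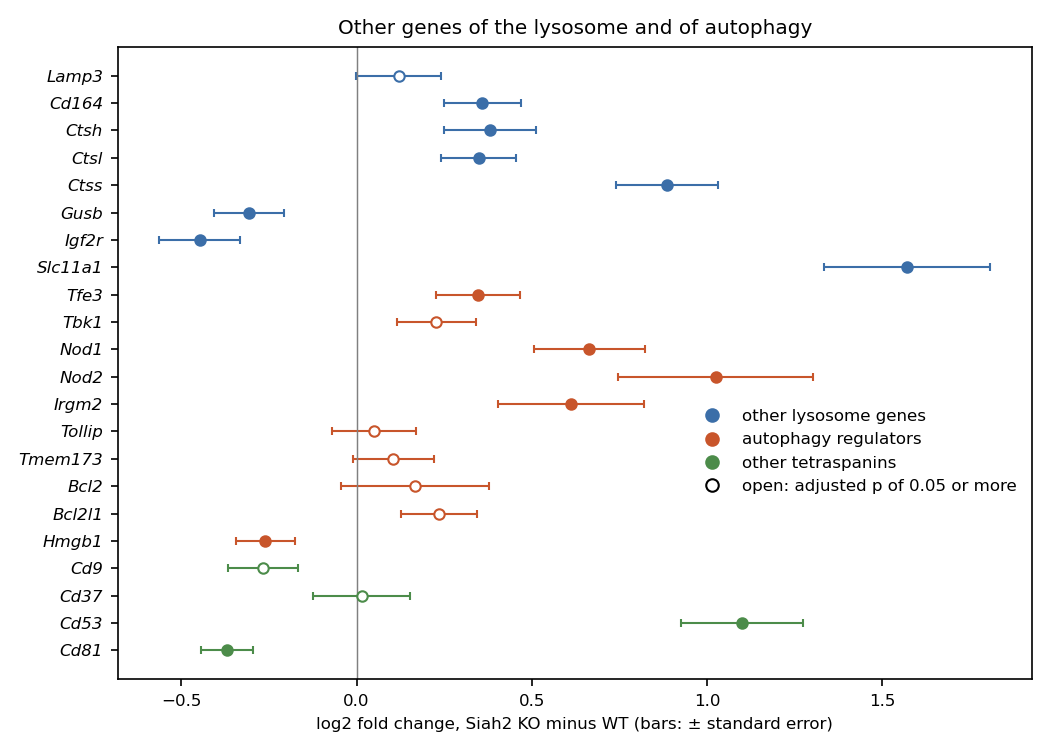
Log2 fold change, Siah2 KO minus WT, with its standard error, of 8 other lysosomal genes (blue), 10 regulators of autophagy (orange) and 4 other tetraspanins (green). Filled points passed a limma adjusted p under 0.05. *Slc11a1* at 1.57 is the highest and *Igf2r* at -0.45 the lowest.

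For the 3 genes that passed the test, the 3 probes with the most similar pattern over the 10 tumors were sought among 601 probes averaging 20 normalized counts or more, by the root mean square difference of centred log2 values. The nearest to *Cd68* were *Ctss* (0.099), *C5ar1* (0.11) and *Psmb9* (0.13). The nearest to *Lamp2* were *Ets1* (0.065), *Stat3* (0.068) and *Cd47* (0.075). The nearest to *Atg16l1* were *Abcf1* (0.057), *Hprt* (0.064) and *Stat6* (0.071), of which *Abcf1* and *Hprt* are reference genes of the panel. *Hprt* itself differed by 0.24 (limma adjusted p = 0.017), as much as *Atg16l1* (0.25), and *Abcf1* by 0.19 (limma adjusted p = 0.063). These are descriptions over tumors of both groups, and the difference between the groups is part of the likeness.

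Of the 20 reference genes 2 were higher and 3 lower, with a median log2 fold change of 0.01. The scaling makes their geometric mean alike in all tumors, so a median near 0 follows from it and does not show that they were stable. The factor that scaled each tumor was 0.917 to 1.32 in WT and 1.03 to 1.60 in Siah2 KO tumors, and 382863 to 581642 counts lay behind a tumor before it. The lowest count behind any value of the 10 genes was 43.6, of *Atg10* in KO2, where counting alone gives a coefficient of variation of at least 15.2%, since the background taken off adds its own counting error. Tumors of 1 group correlated at 0.976 to 0.989 over the probes.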

How the data were processed

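RNA (100 ng) of 5 WT and 5 Siah2 KO tumors was counted with the panel, which has 750 endogenous, 20 reference, 6 positive control and 8 negative control probes. Per probe, the authors deposited a signal, the normalized counts of nSolver v2.0, for which the geometric mean of the reference genes set the scale. From the values, a background constant had been taken off, results under 1 set to 1 and the factor then applied. In tumors with a factor under 1 the lowest values still stood at 1, so a floor of 1 also held after the factor. The labels were used for the groups. The series text names another tumor line and gene, which the labels and the study's methods do not.

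The values of all 770 gene probes were compared as log2(value + 1) in limma 3.58.1 (lmFit and eBayes; R 4.3.3), two-sided, with Benjamini-Hochberg adjustment over all probes and a threshold of 0.05. Single values were also tested by a two-sided exact permutation test over the 252 divisions of the tumors. The tumors are replicates by their labels, and their mice and any cartridge are not given further. Named are all genes of the 3 pathway lists, the extremes of each marker list and the 3 nearest patterns of each called gene. The genes and lists were chosen with earlier results of these data known. Alternatives were other scalings, filters, floors, pseudocounts and tests, a replicate block and leaving out each tumor. The steps were tested on simulated data. Promoter windows came from RefSeq (GRCm38.p6). Python 3.11.15 with matplotlib 3.10.9 drew the plots. Other experiments of the study were not analysed here.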

Additional observations from a re-analysis of the deposited data

How the results depend on the processing

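The higher *Cd68* relative to the macrophage markers kept its direction and side of the threshold in all 15 alternatives. The 6 ratios between genes kept their direction in all 15 alternatives tried for each, and their side of the threshold in the 14 that gave a test, since with the replicate block ratios were not tested. For *Lamp2* over *Lamp1* and *Cd68* over *Lamp1* this was largely fixed beforehand. Their groups did not overlap, so leaving out a tumor could only give the smallest exact p again. The factor of a tumor drops out of a ratio, and the floor lay far below these genes. *Cd68* as deposited kept its direction and side of the threshold in 23 of 24 alternatives. The exception was positive control scaling, which called 95 of all 770 probes and 0 of the 10 genes. Leaving out 1 tumor gave 1 to 3 called genes of the 10, where 268 to 334 of all 770 probes were called. Without a test past the threshold, signs turned with scaling to the median of the endogenous probes for *Atg5* (-0.15), *Atg7* (-0.10), *Atg10* (-0.22), *Atg16l1* (-0.019) and *Cd63* (-0.21). They turned with quantile normalization for *Atg5* (-0.18), *Atg7* (-0.13), *Atg10* (-0.26), *Atg16l1* (-0.039), *Lamp2* (-0.089) and *Cd63* (-0.13), and with positive control scaling for *Atg5* (-0.051), *Atg10* (-0.11) and *Cd63* (-0.10). *Lamp2* also missed the threshold with endogenous probes only (limma adjusted p = 0.051) and with unequal variances (adjusted p = 0.059). Like median scaling, quantile normalization called *Atg12* (-0.41, limma adjusted p = 0.0035) and *Lamp1* (-0.27, limma adjusted p = 0.0066) lower. It called 334 of all 770 probes in either direction. The cause was not tested.

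Relative to leukocyte markers 4 genes were called, where 37.0% of all probes were, with *Tfeb* at -0.079 and *Lamp2* at -0.11. Relative to the mean instead of the median of the macrophage markers 3 were called (45.2% of all probes), *Cd68*, *Atg16l1* (0.33) and *Lamp2*, and *Atg5* (0.19), *Atg7* (0.25), *Atg10* (0.13), *Lamp1* (0.024) and *Cd63* (0.14) turned positive. With 1 tumor left out, the values relative to the median ran from -0.061 to 0.088 for *Atg16l1* and from -0.019 to 0.14 for *Lamp2*.

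Same-numbered tumors of the groups correlated at 0.035, 0.050, 0.17 and 0.35, and 2 of 4 Siah2 KO tumors correlated best with their own number, so the numbers were not taken to pair tumors. A replicate block over the 8 tumors with shared numbers called 235 probes and 1 of the 10 genes, *Cd68*, with *Atg16l1* at 0.24 (limma adjusted p = 0.16) and *Lamp2* at 0.27 (limma adjusted p = 0.14), and the same 8 tumors without it called 232 probes and 1 of the 10. A count model was not run, because background subtraction left values that are not whole counts.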
